A study of Homo sapiens with 9 samples.

Results

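RAD54L and 8 further genes of homologous recombination (RAD54B, RAD51C, XRCC3, RAD51AP1, BRCA1, PALB2, BRCA2 and BLM) were followed through HEK293 cells that lack, regained or always had the gene UBE3D. These 9 genes were picked by symbol out of the 26485 genes of the count table. RAD54L was picked because earlier results of the same libraries showed it low in UBE3D knockout cells, and the others because they act in the same pathway, so their knockout against wild-type values are given here as a description, with no test.

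Homologous recombination repairs broken DNA by copying the sister chromatid, and it works mainly while cells replicate their DNA and afterwards. BRCA1 and PALB2 bring BRCA2 to the resected break, where BRCA2 helps to build the protein filament that searches for the template, and RAD51C and XRCC3 assist at this stage. RAD51AP1 aids the pairing of the strand with its template, RAD54L and RAD54B are DNA motors that drive strand invasion, and the helicase BLM takes apart the joined molecules without a crossover.

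The study measured poly(A)-selected RNA of HEK293 cells, a line derived from human embryonic kidney, in 9 libraries. There were 3 libraries of knockout cells with UBE3D restored (addback), 3 of UBE3D knockout cells (KO) and 3 of wild-type cells (WT). UBE3D is an E3 ubiquitin ligase. The treatment field mentions the CRISPR/Cas9 knockout for all 9 samples, WT included; the labels call each sample pooled, and they state neither how many clones were used nor which construct restored UBE3D. Whether the 3 libraries of a genotype go back to separate cultures is not labelled, and p-values therefore measure only the spread between libraries, which may be technical.

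Total counts per library ran from 23088295 to 37508780. UBE3D itself ran from 2796 to 3337 scaled CPM in addback libraries, from 13.0 to 15.5 in KO libraries and from 19.5 to 26.8 in WT libraries. Addback thus held UBE3D RNA far above the WT level, not a return to it. Scaled CPM are the counts relative to library size, with scaling factors taken from 6052 low-background genes. UBE3D transcript was still counted in the KO libraries, where its log2 fold against WT was -0.65 ± 0.13 (SE; edgeR adjusted p = 0.00314), or -0.28 (adjusted p = 0.142) with scaling over all genes. All 8 HEK293 marker genes, a mix of kidney, adrenal and neural genes, stood at 1 scaled CPM or more in each group. Their summed level was 1027 to 1071 in addback, 788 to 941 in KO and 1593 to 1673 in WT libraries. IRS4 alone averaged 335 in addback, 210 in KO and 842 in WT. Single markers went different ways: in KO and WT, PAX2 averaged 2.73 and 14.6, and LHX1 31.4 and 27.7.

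The libraries of addback and WT stood apart from those of KO in 1 respect that bears on long genes. Of 591 genes restricted to unrelated tissues, such as odorant receptors, 94.1% to 94.9% had a count in each addback or WT library, against 14.7% to 17.6% in KO libraries. From the median count of these genes per kilobase of coding sequence, each gene was given an estimated coding-exon background, which is 0 in KO libraries. Summed over all genes it would fill 2.86%, 11.9% and 11.8% of addback libraries 1 to 3 and 3.07%, 8.42% and 14.8% of WT libraries 1 to 3. Germ cell markers, which include meiotic recombination genes, moved with it: all 10 reached 1 scaled CPM in addback and in WT, where they summed to 16.3 to 62.2 and 31.7 to 168, while in KO 3 of 10 did, 1 was at 0 and the sum was 4.57 to 5.04. Their estimated background summed to 13.9 to 60.7 in addback and 14.9 to 76.4 in WT, which in WT falls short of their level. The 4 blood and 3 liver markers also all reached 1 scaled CPM in addback and in WT, and 0 of either set did in KO.

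The sequences before the start sites of RAD54L and RAD51C are shown because RAD54L and RAD51C had close scaled CPM in WT libraries, not corrected for length, and separate ones in KO libraries. The lines hold the 250 bases upstream of each start from RefSeq (GRCh38.p14), plus strand, at chr1:46247438-46247687 for RAD54L and chr17:58692323-58692572 for RAD51C. Capitals mark matches, on either strand, to the CCAAT box of the factor NF-Y, to the SP1 core motif, spelled GGGCGG, and to a form of the E2F site that was searched as TTCCCGC.
RAD54L: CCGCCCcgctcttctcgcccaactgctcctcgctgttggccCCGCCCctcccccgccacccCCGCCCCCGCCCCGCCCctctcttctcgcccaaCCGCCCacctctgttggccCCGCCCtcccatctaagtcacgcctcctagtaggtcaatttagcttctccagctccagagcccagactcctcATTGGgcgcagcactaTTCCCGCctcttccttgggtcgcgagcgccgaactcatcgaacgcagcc
RAD51C: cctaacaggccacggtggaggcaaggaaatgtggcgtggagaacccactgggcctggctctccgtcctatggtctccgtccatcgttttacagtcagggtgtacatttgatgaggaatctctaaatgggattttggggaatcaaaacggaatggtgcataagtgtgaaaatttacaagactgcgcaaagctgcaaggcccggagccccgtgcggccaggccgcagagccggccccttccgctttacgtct
The RAD54L stretch held 7 matches to the SP1 core, each read on the minus strand, of which those beginning 183 and 178 bases before the start share 1 base. It held 1 CCAAT box on the minus strand, beginning 65 bases before the start, and 1 match to the E2F form on the plus strand, beginning 49 bases before it. The RAD51C stretch held no match to any of them. Among 35116 promoter windows of the same length, 42.6% held the SP1 core, 32.0% the CCAAT box and 5.52% the E2F form on either strand. Windows matched 8 of the 9 members, all but RAD54B. RAD51AP1 and BLM held all of these motifs, as RAD54L did, BRCA1 held the CCAAT box and the E2F form, XRCC3 the CCAAT box and the SP1 core, PALB2 the CCAAT box, and BRCA2, like RAD51C, none of them. A match is a run of letters and was not tested as a binding site.

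RAD54L RNA was low in KO and stood in addback at the level of WT. Its 3 addback libraries read 74.2, 79.9 and 78.0 scaled CPM, its KO libraries 37.0, 32.2 and 35.5, and its WT libraries 74.1, 81.2 and 76.8. Every KO library lay under every library of the other groups, and addback and WT libraries overlapped. The log2 fold of KO against WT was -1.15 ± 0.06, a level of 0.45 times that of WT, in the contrast that chose the gene. RAD54L rose in addback against KO, with a log2 fold of 1.15 ± 0.06 (n = 3 libraries each, edgeR adjusted p = 2.2e-05), in a comparison that shares the KO libraries with the contrast that chose it. Set against each other, addback and WT had a log2 fold of -0.00 (95% interval -0.14 to 0.14, edgeR adjusted p = 1.0), a comparison that shares the WT libraries with it. The exact permutation test of single library values gave p = 0.1 for addback against KO, the smallest that 3 against 3 libraries allow, and p = 1 for addback against WT. In bulk RNA, fewer cells that express RAD54L and less RNA per cell cannot be told apart.

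Background made up a small share of the RAD54L level. The gene lies on chromosome 1 (46247695-46278473, plus strand, hg38), with 3146 exon bases of which 2252 are coding. The estimated background made up 7.54% of its mean level in addback and 7.48% in WT, and at most 12.9% in 1 library, WT 3. With the background subtracted the KO against WT fold was -1.11 ± 0.06, and taking off 2 times the estimate gave -1.05 ± 0.06. In the addback and WT libraries with the least background (library 1 of each) set against the 3 KO libraries, the folds were -1.08 for KO against WT and 1.10 for addback against KO. Scaling over all genes, under which the median fold of all genes in KO against WT was -0.12 in place of -0.50, gave -0.78 ± 0.10 for RAD54L, and 0.81 ± 0.10 for addback against KO (edgeR adjusted p = 0.000365). In the authors' deposited table the RAD54L log2 folds were -0.85 ± 0.08 for KO against WT and 0.83 ± 0.08 for addback against KO. Of its exon bases, 74 (2.35%) lie opposite LRRC41, and whether the counting used strand is not given in the sources used here.

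**Figure D1:**
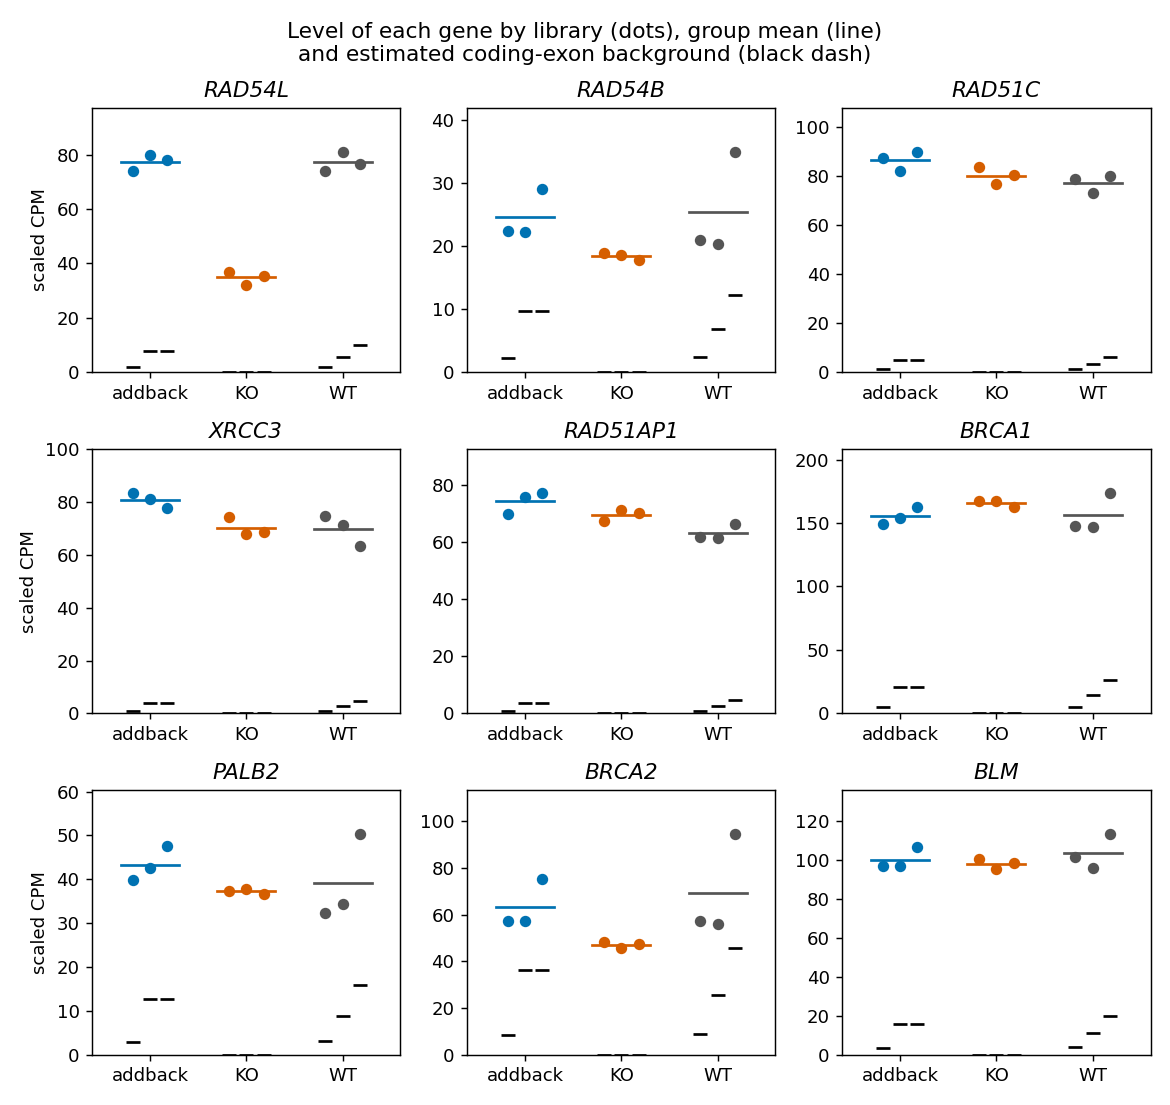
Scaled CPM (vertical axis, from 0) of each of the 9 genes in addback, KO and WT, with 1 dot per library, a line at the mean of 3 libraries and a black dash for the estimated coding-exon background of each library. RAD54L sits at 32.2 to 37.0 in KO and 74.1 to 81.2 in the other groups, while RAD54B, PALB2 and BRCA2 are highest in the third WT library, where their background is highest too.

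Within the low-background genes, RAD54L stood near the edge of the distribution in both comparisons with KO. Nothing is read from that place, since RAD54L was chosen for its low KO level and both comparisons use the KO libraries. In KO against WT, 15 of 6052 genes had a lower fold, and in addback against KO 43 had a higher one. The genes whose log2 scaled CPM followed it most closely over the 9 libraries, out of 6038 genes compared, were GOSR2, a Golgi SNARE (Pearson r = 0.989), ARPC1B, a subunit of the Arp2/3 actin complex (0.987), TCF25 (0.985), POLA2, the regulatory subunit of DNA polymerase alpha (0.983), and GAMT, which makes creatine (0.982). These r values were chosen as the highest and rest on the same step between KO and the other groups. The creatine gene GAMT averaged 30.4 ± 1.64 scaled CPM in addback, 16.3 ± 1.60 in KO and 29.7 ± 1.09 in WT (SD, n = 3 each). The members among the low-background genes had lower r with RAD54L, at 0.38 for XRCC3, 0.15 for RAD51C, -0.10 for RAD51AP1 and -0.52 for BRCA1.

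Low-background genes next to RAD54L on chromosome 1 had folds nearer to 0. Within 500 kb on either side 20 genes were tested, 6 of them low-background, and the folds of these 6 in KO against WT ran from -0.46 to 0.19. PIK3R3, a regulatory subunit of PI3-kinase, fell by 0.46 (edgeR adjusted p = 0.000763) and LRRC41, the neighbour that overlaps the end of RAD54L on the other strand, fell by 0.37 (adjusted p = 0.00100). UQCRH, a subunit of respiratory complex III, rose by 0.19 (adjusted p = 0.00211). With scaling over all genes PIK3R3 and LRRC41 were at -0.09 and -0.01, with no call, and UQCRH at 0.55. The difference between these folds and that of RAD54L was not tested.

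RAD54B, the other RAD54 motor, had lower counts and more background. It read 22.4, 22.3 and 28.99 scaled CPM in addback, 18.9, 18.7 and 17.8 in KO and 20.9, 20.3 and 35.0 in WT libraries. KO libraries were the lowest, and the third library of addback and of WT stood above its group. The background was 29.3% of the mean level in addback and 28.1% in WT. The KO against WT fold of -0.46 ± 0.21 became -0.06 ± 0.22 with the background subtracted, and was -0.16 without WT library 3 and -0.07 with scaling over all genes. The addback against KO fold was 0.41 ± 0.21 (edgeR adjusted p = 0.117), and -0.02 with the background subtracted (adjusted p = 0.962). It passed the test without WT library 3 (adjusted p = 0.0137) and in a fit of the 2 groups alone (0.0132). RAD54B shares 5403 of its 8477 exon bases (63.7%) with FSBP on the same strand, and FSBP is listed at 0 counts in each library, so reads of the pair cannot be told apart.

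RAD51C and XRCC3, which form 1 complex, are short genes with little background, 3.47% to 4.53% of their level in addback and WT. RAD51C read 87.4, 82.0 and 89.9 scaled CPM in addback, 83.6, 76.5 and 80.2 in KO and 78.7, 72.9 and 80.1 in WT. Its KO libraries overlapped those of both other groups, and its addback libraries lay above those of WT. The log2 folds were 0.05 ± 0.05 for KO against WT, 0.11 ± 0.05 for addback against KO (edgeR adjusted p = 0.108) and 0.16 ± 0.05 for addback against WT (adjusted p = 0.110). With scaling over all genes the addback against KO fold turned to -0.23 (adjusted p = 0.117). With the replicate number as a block, the addback against WT value passed the test (0.16, edgeR adjusted p = 0.0223).

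XRCC3 read 83.5, 81.2 and 77.8 scaled CPM in addback, 74.5, 68.0 and 68.6 in KO and 74.7, 71.2 and 63.5 in WT. The addback libraries lay above all the others, and KO and WT overlapped, with a KO against WT fold of 0.01 ± 0.06. XRCC3 rose in addback against KO (0.20 ± 0.06, edgeR adjusted p = 0.0255). That call was lost without KO library 2 (adjusted p = 0.0949), KO 3 (0.0906), addback 1 (0.0677) or addback 2 (0.0621). Scaling over all genes turned the fold to -0.13 (edgeR adjusted p = 0.430). In addback against WT it was 0.21 ± 0.06 (edgeR adjusted p = 0.0873), and with the replicate block adjusted p = 0.0153.

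RAD51AP1, which aids strand pairing, read 69.7, 75.7 and 77.1 scaled CPM in addback, 67.1, 71.1 and 70.1 in KO and 61.8, 61.3 and 66.3 in WT. KO and addback libraries lay above those of WT and overlapped each other. It rose in addback against WT (0.23 ± 0.05, edgeR adjusted p = 0.0227, and 0.00878 with the replicate block). The call was lost with scaling over all genes (adjusted p = 0.270), in a fit of the 2 groups alone (0.0684) and without addback 2 (0.103), addback 3 (0.0810), WT 1 (0.0755) or WT 2 (0.0831). The folds were 0.14 ± 0.05 for KO against WT and 0.09 ± 0.05 for addback against KO (edgeR adjusted p = 0.142). Without addback 1 the addback against KO value passed the test (0.14, adjusted p = 0.0461), and with scaling over all genes it turned to -0.25 (adjusted p = 0.0413).

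The mediators differed in how much of their level was background. BRCA1, which with PALB2 brings BRCA2 to the break, is the member with the highest counts. It read 149.6, 153.9 and 162.6 scaled CPM in addback, 167.7, 167.5 and 162.4 in KO and 147.7, 146.5 and 173.7 in WT. The groups overlapped. Its log2 folds were 0.09 ± 0.06 for KO against WT, -0.09 ± 0.06 for addback against KO (edgeR adjusted p = 0.233) and -0.00 ± 0.06 for addback against WT (adjusted p = 1.0). With the background subtracted, 9.91% of the level in addback and 9.80% in WT, BRCA1 fell in addback against KO by 0.17 (edgeR adjusted p = 0.0470), and with scaling over all genes it fell by 0.44 (adjusted p = 0.00461). Without WT library 3 the fold of -0.09 passed the test as well (adjusted p = 0.0444).

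PALB2, the bridge between BRCA1 and BRCA2, read 39.8, 42.5 and 47.6 scaled CPM in addback, 37.3, 37.9 and 36.6 in KO and 32.4, 34.5 and 50.3 in WT. The WT libraries spread on both sides of KO. Its background was 21.6% of the level in addback and 23.8% in WT. The KO against WT fold of -0.06 ± 0.15 turned to 0.25 ± 0.12 with the background subtracted. Without WT library 3 it was 0.16. The addback against KO fold was 0.22 ± 0.15 (edgeR adjusted p = 0.245), or -0.13 with scaling over all genes. It passed the test without WT library 3 (adjusted p = 0.0276) and in a fit of the 2 groups alone (0.0238); in addback against WT it was 0.15 ± 0.15 (adjusted p = 0.867), or 0.37 without WT library 3 (adjusted p = 0.0245).

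BRCA2, which acts on the resected strand, has the longest coding sequence of the members (10.415 kb) and the largest background. It read 57.4, 57.3 and 75.4 scaled CPM in addback, 48.0, 45.8 and 47.5 in KO and 57.0, 55.7 and 94.4 in WT. KO libraries were the lowest, by a log2 fold of -0.55 ± 0.20 against WT, or -0.26 without WT library 3 and -0.16 with scaling over all genes. The background was 42.6% of the mean level in addback and 38.8% in WT, and between 14.5% and 63.5% in single addback libraries. With it subtracted, BRCA2 averaged 36.4 ± 14.3 scaled CPM in addback, 47.1 ± 1.19 in KO and 42.3 ± 10.6 in WT (SD, n = 3 each), and the KO against WT fold was 0.09 ± 0.28. The addback against KO fold was 0.43 ± 0.20 as counted (edgeR adjusted p = 0.0934) and -0.31 with the background subtracted (adjusted p = 0.468). It passed the test without WT library 3 (edgeR adjusted p = 0.00827) and in a fit of the 2 groups alone (0.00717).

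BLM read 97.0, 97.1 and 107.1 scaled CPM in addback, 100.6, 95.6 and 98.8 in KO and 101.6, 96.2 and 113.4 in WT. The 3 groups overlapped. The log2 folds were -0.08 ± 0.06 for KO against WT, 0.03 ± 0.06 for addback against KO (95% interval -0.12 to 0.18, edgeR adjusted p = 0.709) and -0.05 ± 0.06 for addback against WT (adjusted p = 0.987). Scaling over all genes gave -0.31 for addback against KO, past the test (edgeR adjusted p = 0.0257).

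**Figure D2:**
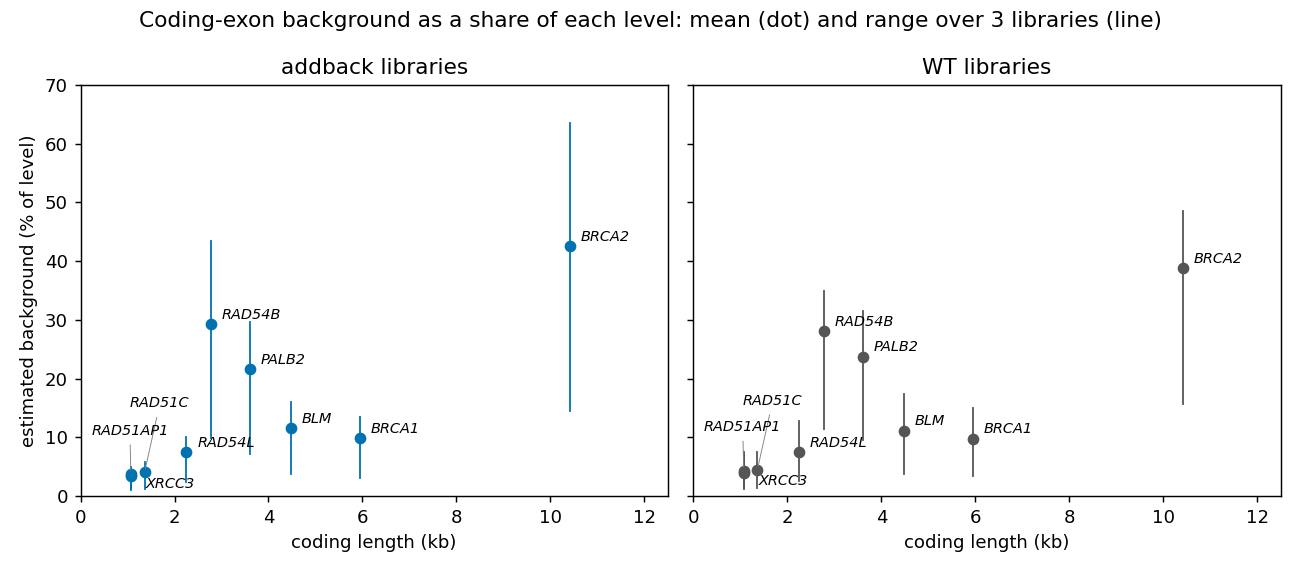
Estimated coding-exon background as a percentage of the level of each gene (vertical axis) against its coding length in kilobases (horizontal axis), for addback (left) and WT (right), with dots for the group mean and lines for the range over 3 libraries. BRCA2, RAD54B and PALB2 are the genes with the largest shares, from 21.6% to 42.6%, and RAD54L stands at 7.54% in addback and 7.48% in WT.

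**Figure D3:**
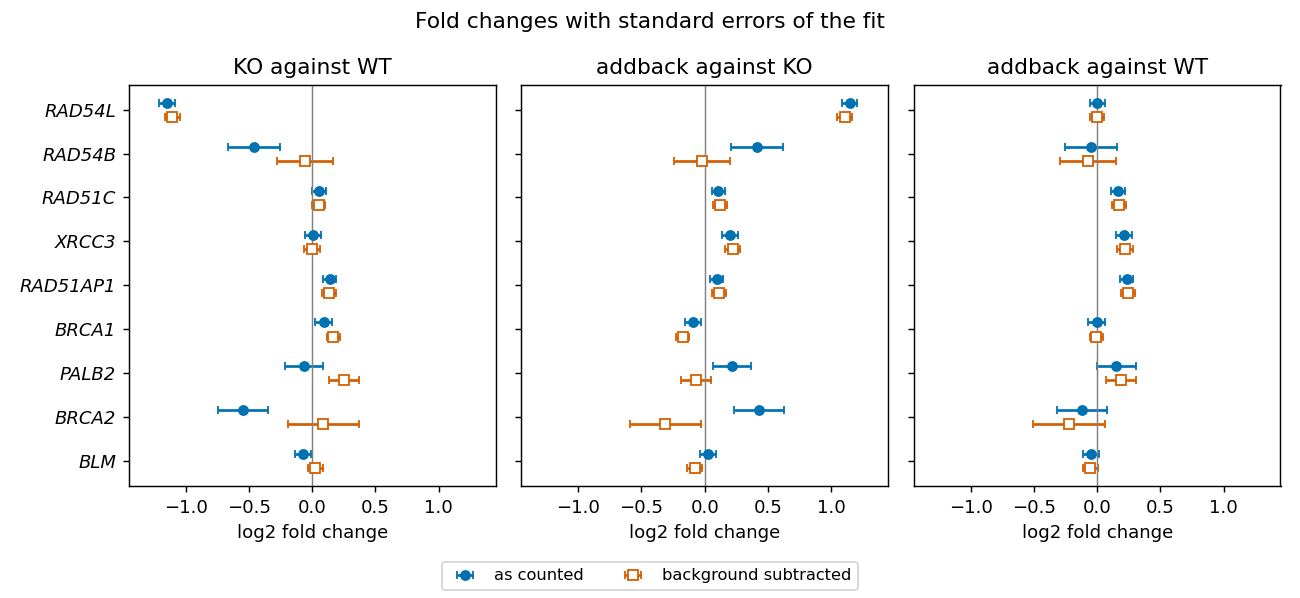
Log2 fold change (horizontal axis) of each of the 9 genes in the 3 comparisons, with bars for the standard error, as counted (filled circles) and with the estimated background subtracted (open squares). RAD54L keeps its place, -1.15 and -1.11 in KO against WT. In both comparisons with KO, RAD54B, PALB2 and BRCA2 move towards or across 0, PALB2 from -0.06 to 0.25 in KO against WT.

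Counted over the members, the KO against WT contrast had 3 members with each KO library under each WT library (RAD54L, RAD54B and BRCA2) and 1 above (RAD51AP1), beside 60.8% and 10.4% of all 21994 genes tested; nothing is read from these counts, since the contrast chose the genes. Set against KO, addback had 2 members called higher (RAD54L and XRCC3) and 0 lower, beside 51.3% and 5.85% of all genes tested and 18.4% and 18.9% of the low-background genes. Both called members are among the 5 low-background members, and RAD54L was chosen for its low KO level, so nothing is read from this count. With scaling over all genes 1 member was called higher (RAD54L) and 3 lower (RAD51AP1, BRCA1 and BLM), beside 38.0% and 21.8% of all genes. With the background subtracted 2 were higher and 1 lower (BRCA1), beside 19.4% and 4.79%. Without WT library 3 the counts were 5 and 1, and in a fit of the 2 groups alone 5 and 0. The share of all genes called in these runs is not given here, so nothing is read from them. Libraries of addback and KO did not overlap for 5 members, all higher in addback, beside 63.2% of all genes higher and 9.14% lower. In addback against WT 1 member was called higher (RAD51AP1) and 0 lower, beside 4.65% and 4.76% of all genes. With the replicate block 3 were higher and 0 lower, beside 5.98% and 6.19%, and with scaling over all genes none was called. In addback against WT 3 members did not overlap, all higher in addback, beside 10.7% of all genes higher and 10.2% lower. Of the low-background genes 12.4% were called higher and 13.8% lower in addback against WT. All 9 members passed the filter on low counts, and 5 are low-background genes (RAD54L, RAD51C, XRCC3, RAD51AP1 and BRCA1). The median fold of the 9 was -0.06 for KO against WT, 0.20 for addback against KO and -0.00 for addback against WT, beside -0.50, 0.49 and 0.01 over all genes tested. The first and second of these medians changed sign, to 0.32 and -0.13 with scaling over all genes and to 0.05 and -0.02 with the background subtracted. Under scaling over all genes the KO against WT folds of the 6 members other than RAD54L, RAD54B and BRCA2 ran from 0.29 to 0.51.

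Per kilobase of exon, RAD54L changed its place among the members. Leaving out RAD54B for its shared exons, RAD51C was highest in each group, at 57.1 ± 2.66 scaled CPM per kilobase in addback, 53.0 ± 2.35 in KO and 51.0 ± 2.53 in WT. RAD51AP1 and XRCC3 followed; their libraries overlapped in addback and WT and not in KO. In addback and in WT, RAD54L ranked 4, at 24.6 ± 0.929 and 24.6 ± 1.15, above BRCA1 and BLM, which overlapped each other. Its libraries stood apart from those of its neighbours in addback, while in WT they overlapped those of XRCC3 above and BRCA1 below. In KO it ranked 6, at 11.1 ± 0.787, under BRCA1 (22.5 ± 0.412) and BLM (20.4 ± 0.530). PALB2 and BRCA2 were the lowest in each group, at 9.18 ± 0.154 and 4.14 ± 0.104 in KO, and their libraries overlapped in WT.

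The rest of the pathway was read from a list of 43 further homologous recombination genes, all of them tested. In KO against WT, 5 were called higher and 17 lower, beside 8.15% and 54.4% of all genes, and among its 20 low-background genes 5 were higher and 5 lower, beside 24.5% and 26.4%. With the background subtracted the counts were 6 and 8, beside 9.1% and 26.7% of the genes then tested, and with scaling over all genes 16 and 1, beside 24.2% and 37.4%. Without KO library 2 the number called was 14 in place of 22. The median fold was -0.23, or 0.13 with scaling over all genes, beside -0.50 and -0.12 over all genes.

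The genes named from this list, and from the lists that follow, were picked as called in KO against WT with the largest folds. Nothing is therefore read from their calls in KO against WT. The other comparisons share the KO or the WT libraries with that contrast. EME1, which with MUS81 cuts branched DNA, averaged 50.9 ± 2.22 scaled CPM in addback, 40.9 ± 1.15 in KO and 54.4 ± 0.274 in WT (SD, n = 3 each). It fell in KO against WT by 0.41 ± 0.05 (edgeR adjusted p = 0.000530) and rose in addback against KO by 0.31 ± 0.05 (adjusted p = 0.00210). XRCC2, which acts in strand exchange, averaged 39.3 ± 2.01 scaled CPM in addback, 36.3 ± 1.70 in KO and 48.8 ± 1.26 in WT. It fell in KO against WT by 0.43 ± 0.06 (adjusted p = 0.000989), and it was also lower in addback against WT (-0.31 ± 0.06, adjusted p = 0.00937). With scaling over all genes neither gene was called: the KO against WT folds of EME1 and XRCC2 were -0.05 and -0.06, the addback against KO fold of EME1 turned to -0.03, and the addback against WT fold of XRCC2 was -0.29 (adjusted p = 0.273). RMI1, which works with BLM, fell by 0.53 ± 0.09 in KO against WT and by 0.41 ± 0.09 in addback against WT (edgeR adjusted p = 0.00216 and 0.0285). PARPBP, an inhibitor of homologous recombination, fell in KO against WT by 0.59 ± 0.10 (adjusted p = 0.00207). SWI5, which acts in strand exchange (-0.44 ± 0.13, adjusted p = 0.0184), and the checkpoint kinase ATR (-1.09 ± 0.27, adjusted p = 0.00698) missed the test with the background subtracted (0.0963 and 0.0601). With scaling over all genes RMI1 (-0.16), PARPBP (-0.21) and SWI5 (-0.07) were not called in KO against WT, nor was RMI1 in addback against WT (-0.38, adjusted p = 0.142), while ATR was (-0.70, adjusted p = 0.00895). ATR averaged 52.4 ± 9.79 scaled CPM in addback, 35.9 ± 0.792 in KO and 77.0 ± 33.7 in WT, so its WT libraries spread widely.

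In addback against KO, 7 of the 43 genes were called higher and 3 lower, beside 51.3% and 5.85% of all genes. The number called was 4 without KO library 1 or KO library 2, and 5 without addback 2 or addback 3. With the background subtracted 1 was higher and 4 lower, beside 19.4% and 4.79%, and with scaling over all genes 0 and 14, beside 38.0% and 21.8%. In addback against WT 1 was called higher and 4 lower, beside 4.65% and 4.76%. With the replicate block these were 2 and 7, beside 5.98% and 6.19%. With scaling over all genes they were 0 and 0, and without addback 2 the number called was 3. The share of all genes is not given for the last 2 runs, so nothing is read from them.

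Neighbouring repair pathways held single genes with the RAD54L direction. Of 18 Fanconi anaemia genes, which unhook crosslinked DNA, 1 was called higher and 9 lower in KO against WT, beside 8.15% and 54.4% of all genes. With the background subtracted these were 1 and 7, beside 9.1% and 26.7%. With scaling over all genes they were 7 and 1, beside 24.2% and 37.4%. Among the 9 low-background genes of the list 1 was higher and 3 lower, beside 24.5% and 26.4% of all low-background genes. In addback against KO 5 were higher and 1 lower, beside 51.3% and 5.85% of all genes. Scaling over all genes gave 0 and 9, beside 38.0% and 21.8%, and background subtraction 3 and 1, beside 19.4% and 4.79%. Among the low-background genes of the list 1 was higher and 1 lower, beside 18.4% and 18.9%. The median fold of the 18 genes was -0.12 in KO against WT and 0.10 in addback against KO. The Fanconi genes named next were picked by their KO against WT calls, so nothing is read from those calls. FANCA, a subunit of the core complex, averaged 121 ± 2.29 scaled CPM in addback, 90.8 ± 1.78 in KO and 129.5 ± 5.81 in WT. It fell in KO against WT by 0.51 ± 0.04 (edgeR adjusted p = 8.58e-05) and rose in addback against KO by 0.42 ± 0.04 (adjusted p = 0.000494). Its core complex partners FANCG (-0.64 ± 0.08), FANCE (-0.55 ± 0.10), FANCC (-0.53 ± 0.07) and FAAP100 (-0.50 ± 0.06) fell as well. When scaled over all genes FANCA was at -0.14 in KO against WT and 0.08 in addback against KO, with neither called, and FANCE (-0.18), FANCC (-0.16) and FAAP100 (-0.13) lost their calls, while FANCG kept its own (-0.28, adjusted p = 0.0425). FAAP24, which holds the complex on DNA, rose (0.43 ± 0.08, adjusted p = 0.00193). FANCC stayed under WT in addback (-0.48 ± 0.07, adjusted p = 0.00284).

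End joining, the repair route that ligates ends without a template, had 17 genes on its list. Of these, 2 were called higher and 6 lower in KO against WT, beside 8.15% and 54.4% of all genes. With scaling over all genes they were 8 and 1, beside 24.2% and 37.4%. With the background subtracted they were 2 and 4, beside 9.1% and 26.7%. Among the 8 low-background genes of the list 2 were higher and 3 lower, beside 24.5% and 26.4% of all low-background genes. In addback against KO 6 were higher and 4 lower, beside 51.3% and 5.85% of all genes. Scaling over all genes gave 0 and 6, beside 38.0% and 21.8%, and background subtraction 2 and 2, beside 19.4% and 4.79%. Among the low-background genes of the list 2 were higher and 4 lower, beside 18.4% and 18.9%. The median fold of the 17 genes was -0.11 in KO against WT and 0.17 in addback against KO. The end joining genes named next were picked by their KO against WT calls as well. LIG3, a DNA ligase, averaged 104 ± 3.28 scaled CPM in addback, 80.5 ± 4.87 in KO and 113 ± 2.498 in WT (-0.49 ± 0.05 for KO against WT, edgeR adjusted p = 0.000275). The adaptor PAXIP1 (-0.65 ± 0.10), the polymerase POLL (-0.32 ± 0.07) and C9orf142, which encodes the ligation factor PAXX (-0.38 ± 0.07), fell too. Under scaling over all genes LIG3 (-0.13) and C9orf142 (-0.02) were not called, POLL turned to 0.05, and PAXIP1 kept its call (-0.27, adjusted p = 0.0115). POLL also missed the test with the background subtracted (adjusted p = 0.0916). XRCC6, the Ku70 subunit that binds ends, rose in KO against WT (0.19 ± 0.03, adjusted p = 0.00167), as did PARP1, a sensor of breaks (0.13 ± 0.03, adjusted p = 0.00598).

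Because recombination genes are used in dividing cells, 48 genes of DNA replication and S phase were set beside them. In KO against WT 12 were called higher and 14 lower, in addback against KO 14 higher and 5 lower, and in addback against WT 7 higher and 3 lower. Of the 48, 45 are low-background genes, and over all low-background genes 24.5% and 26.4% were called in KO against WT, 18.4% and 18.9% in addback against KO and 12.4% and 13.8% in addback against WT. In the same order of comparisons the list had median folds of -0.04, 0.06 and 0.02. Scaling over all genes gave 26 and 1 in KO against WT, beside 24.2% and 37.4% of all genes under that scaling. It gave 0 and 21 in addback against KO, beside 38.0% and 21.8%, and 0 and 0 in addback against WT. The share of all genes is not given for that last comparison, so nothing is read from its counts. Genes named from this list were likewise picked by their KO against WT calls. POLA2 averaged 63.1 ± 4.29 scaled CPM in addback, 42.9 ± 1.05 in KO and 66.5 ± 1.51 in WT. It fell in KO against WT by 0.63 ± 0.05 (edgeR adjusted p = 0.000160), or by 0.27 with scaling over all genes, and rose in addback against KO by 0.56 ± 0.05 (adjusted p = 0.000667), or 0.21 with scaling over all genes, where the call was lost (adjusted p = 0.0585). The polymerase subunits POLA1 and POLD1 (each -0.30) and the helicase partners GINS2 (-0.36 ± 0.05) and CDC45 (-0.32 ± 0.05) fell in KO against WT, with folds of 0.00 to 0.07 and no call when scaled over all genes. CCNE1, the cyclin that starts S phase, rose (0.26 ± 0.04, adjusted p = 0.00166). The number of cells in S phase was not measured, and its part in the RAD54L result was not tested.

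**Figure D4:**
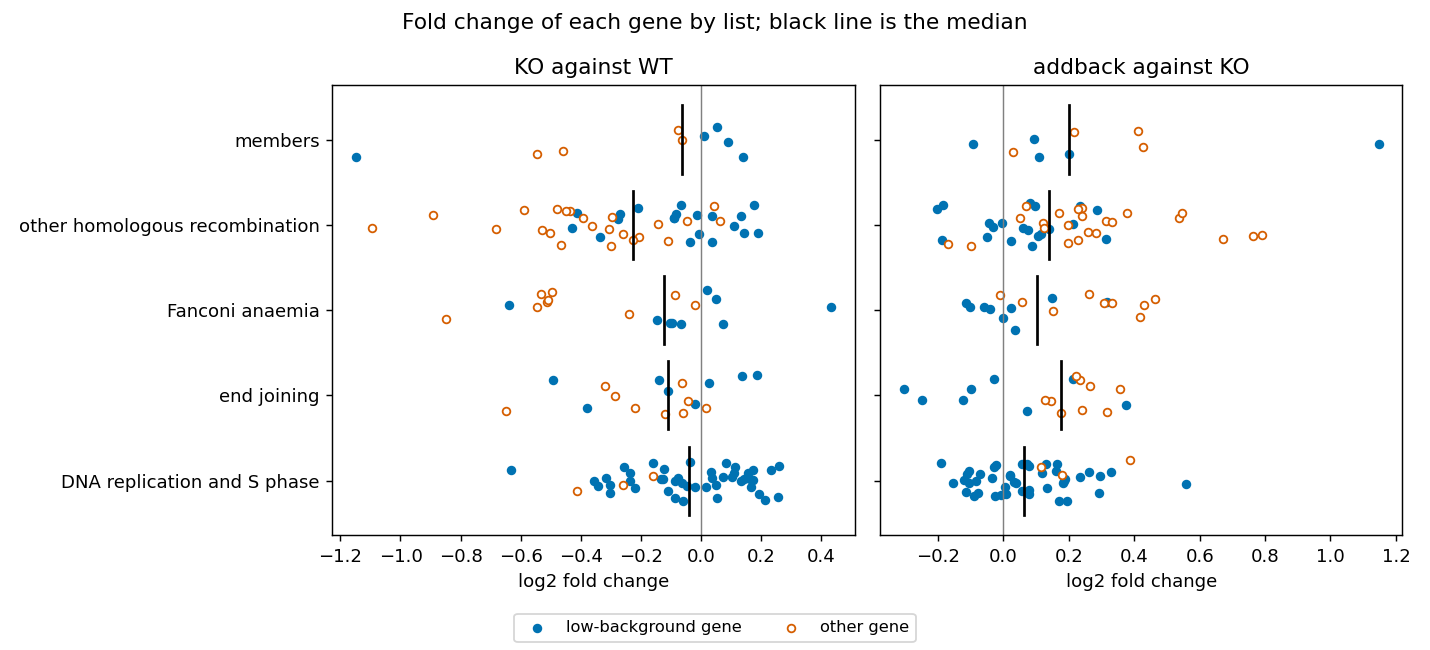
Log2 fold change (horizontal axis) of each gene in KO against WT (left) and addback against KO (right), for the 9 members and 4 lists, with filled dots for low-background genes, open dots for the others and a black line at the median. RAD54L is the dot at -1.15 on the left and 1.15 on the right, and the medians of the lists lie between -0.23 and -0.04 on the left.

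The authors' deposited tables of transcribed regions downstream of genes, 2541 regions for KO against WT and 2396 for addback against KO, list 2 members. The region after RAD51AP1 (chr12:4560048-4590073, 30026 bases, plus strand, hg38) reaches the start of DYRK4 on the same strand, at 4590072. In the authors' deposited table it had a log2 fold of -0.75 ± 0.14 in KO against WT (adjusted p = 3.3e-07), while the gene's own fold there was 0.40 ± 0.07. The region after RAD51C (chr17:58734343-58754542, 20200 bases, plus strand) had 0.91 ± 0.15 in the authors' deposited table (adjusted p = 4.9e-09). In addback against KO the authors' deposited table gave 0.53 ± 0.14 for RAD51AP1 (adjusted p = 0.000199) and -0.19 ± 0.14 for RAD51C (adjusted p = 0.246). The folds of both region tables are not on 1 scale: fold over SE returned the listed p for 100% of regions in the first and for 7.43% in the second, within 0.01 on the log10 scale.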

How the data were processed

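Poly(A) RNA of 9 HEK293 libraries was analysed from processed files. Per the submitters' processing notes, cutadapt 1.8.1, STAR 2.5.2b and DESeq2 were used on hg38; the role of each is not stated, and for counting program, annotation and strandedness nothing is given in the sources used here. A deposited table holds raw counts for each gene in each library (unit: count) beside gene length in bases (unit: other); 0 sample columns went unused. The authors' deposited result tables give base means (unit: signal), log2 fold changes with standard errors, test statistics (unit: score), p-values with adjusted p-values, and region lengths (unit: other). Count columns named KO.U were assigned to addback because the authors' deposited comparisons call that group KO with UBE3D.

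The members and the gene lists were chosen with earlier results of these data known. All 9 members are named, with up to 6 genes of each list called in KO against WT with the largest fold that keep their direction after 2 times the estimated background is taken off, the 5 low-background genes most correlated with RAD54L, and UBE3D; neighbours of RAD54L and DYRK4 were named after their values were seen.

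edgeR 4.0.16 under R 4.3.3 was used for the fit of counts (filterByExpr, quasi-likelihood, robust) in 1 fit of all 9 libraries with genotype as the term. Of 26485 genes 21994 were tested, and p-values were adjusted over all of them by Benjamini-Hochberg at 0.05. Library sizes were scaled by TMM over 6052 low-background genes, those whose estimated background is no more than 10% of the mean level and whose exons are at least 10% coding. Coding lengths come from GENCODE 29, matched by symbol for 23900 genes directly and 680 through an older symbol. Gene coordinates, strands and exons are those deposited with the counts. The background of a gene is its coding length times the median count per coding kilobase of 575 tissue-restricted genes in that library, so it assumes an even spread over coding sequence. Promoter sequences come from RefSeq.

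The replicate numbers of addback and WT were taken as paired because residuals of same-numbered libraries correlated (0.89, 0.60 and 0.74; above 0.1 in each pair), and blocked values of that comparison are given beside the results they change. Over low-background genes alone these were 0.52, 0.20 and 0.60. Both comparisons with KO gave -0.04 to 0.00 over all genes and 0.03 to 0.20 over low-background genes, not above 0.1 in each pair, and were not taken as paired. Libraries with different numbers were not compared, and library 1 held the least background in both addback and WT. Whether the numbers pair the libraries was therefore not tested, and the blocked values rest on that assumption. Replicates of a group differed beyond counting noise, with chi-square over degrees of freedom between 1.99 and 44.7. Alternatives were other scalings, DESeq2 1.42.0, background subtraction, no filter, the replicate block, only the groups compared, and leaving out each library. Background subtraction with other choices, another low-background limit and the least-background libraries were added after seeing the data.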

Additional observations from a re-analysis of the deposited data

How the results depend on the processing

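RAD54L kept its direction in each alternative run. Its KO against WT fold was -0.78 with TMM over all genes, -0.86 with DESeq2 size factors in edgeR and -0.86 by the DESeq2 Wald test. It was -1.05 after taking off 2 times the estimated background and -0.96 with it subtracted under TMM over all genes. Leaving out 1 library gave -1.18 to -1.09, and for addback against KO 1.09 to 1.19. With the replicate block, where the numbers are not shown to pair KO with addback libraries, the RAD54L addback against KO fold was 1.15. Under that block RAD51C (0.11, adjusted p = 0.0294) and BRCA2 (0.41, adjusted p = 0.0164) passed the edgeR test in addback against KO, so 4 members were called higher in place of 2. The share of all genes called under that block is not given here.

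Small folds of other members depend on the scaling. For addback against KO, TMM over all genes, DESeq2 size factors and the DESeq2 Wald test turned XRCC3 to -0.13, -0.10 and -0.10, RAD51AP1 to -0.25, -0.21 and -0.21, and BLM to -0.31, -0.27 and -0.27.

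Of the 43 other homologous recombination genes, 22 were called in KO against WT. The count was 14 after background subtraction (6 higher, 8 lower), 9 at 2 times the estimate (5 and 4) and 11 among low-background genes alone (5 and 6, fewer genes tested). It was 11 with the background subtracted under TMM over all genes (8 and 3), and 14 to 25 leaving out 1 library. In addback against KO the count was 10 (7 higher, 3 lower), and the direction turned with DESeq2 size factors, to 0 higher and 16 lower. It was 5 after background subtraction (1 and 4), 5 at 2 times the estimate (0 and 5) and 6 among low-background genes alone (3 and 3). It was 17 with the replicate block (13 and 4), 20 with only the groups compared (16 and 4), and 4 to 15 leaving out 1 library. In addback against WT the count was 5 (1 higher, 4 lower), against 0 with TMM over all genes and 8 with the background subtracted (1 and 7). It was 9 with the replicate block (2 and 7), 10 with both (2 and 8), 3 with only the groups compared (1 and 2), and 3 to 7 leaving out 1 library. The share of all genes called is not given for most of these runs, so nothing is read from the counts. Except where named, the cause was not tested.

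The limits are 3 libraries a group of unknown independence, a background estimate from the coding length alone, and a scaling that rests on genes chosen after the data were seen. In RAD54B, PALB2 and BRCA2, with the largest background shares, folds against KO could not be told from background.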
